A study of Mus musculus with 12 samples.

Results

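Oligodendrocyte precursors and the cells that have just left the precursor state are marked in mouse brain by a small set of genes, and 10 of them were followed here: Pdgfra, Cspg4, Gpr17, Vcan, Ptprz1, Bmp4, Neu4, Lhfpl3, C1ql1 and Enpp6. The 10 were taken by symbol from a table of 24411 gene symbols, and all 10 were among the 15199 genes with enough counts to be tested. The set was chosen on measured values of these same libraries in 3 cases. Gpr17 and Vcan were picked because they were low in the knockout, and Ptprz1 because it was low after stress. For those genes the values of the contrast that chose them are therefore given as a description, without a test.

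The tissue was medial prefrontal cortex, and the mice were adult females of 8 to 12 weeks. The 12 libraries form 4 groups of 3: unstressed wild type (WT), stressed WT, unstressed Cav3.1 knockout (KO) and stressed KO. Cav3.1 is the T-type calcium channel pore encoded by Cacna1g. Both genotypes are on a C57BL/6J background. The KO line came from RIKEN BRC and the WT mice from the breeder Clea Japan, so genotype and colony cannot be told apart. Stressed mice were put through a daily behavioural test, forced swimming or tail suspension, over 5 days. Unstressed mice had no treatment. Whether each library is a separate animal is not stated, and the p-values describe the spread from library to library.

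As background, oligodendrocyte precursors are dividing glial cells spread through grey and white matter that give rise to myelinating oligodendrocytes throughout life. They depend on platelet-derived growth factor through its receptor PDGFRA, and they carry the chondroitin sulfate proteoglycan NG2, encoded by Cspg4. As a precursor commits to differentiate it passes through a short stage at which the receptor GPR17 is high and Bmp4 is made. Enpp6 marks the newly formed oligodendrocyte that follows. In the cortex, precursors receive synaptic input from neurons.

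Totals of estimated counts ran from 15469590 to 31082240 per library. Cacna1g itself lay between 54.6 and 66.0 CPM, the count scaled to the total of its library, in the 6 KO libraries and between 109 and 144 CPM in the 6 WT libraries, so every KO library was below every WT library. Some transcript of the gene was still counted in KO, and which part of the gene the allele removes is not given in the sources used here. Libraries of 3 groups stood apart. Unstressed WT libraries 1 and 2 were rich in 12 listed olfactory bulb genes, of which Lhx1 had too few counts to be tested. All 12 together summed to 1337 and 1394 CPM there, against 40.2 to 191 CPM in the other 10 libraries. The same libraries were high in 12 meningeal and perivascular fibroblast genes, at 350 and 414 CPM against 57.8 to 152 CPM. They were also high in 9 genes of migrating neuroblasts, at 699 and 549 CPM against 87.7 to 231 CPM. Stressed KO library 1 was high in 10 striatal projection neuron genes, at 914 CPM against 251 to 304 CPM. Stressed WT library 3 and stressed KO library 1 had the highest sums of 18 myelin genes, 3904 and 3256 CPM, against 1588 to 2540 CPM elsewhere. No gene of these lists was at 0 in all 12 libraries. Markers of cortical excitatory neurons, 10 genes, were present in every library. Their sums were lowest in unstressed WT libraries 1 and 2, at 1608 and 1904 CPM, against 2456 to 2909 CPM in the other 10 libraries.

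**Figure D1:**
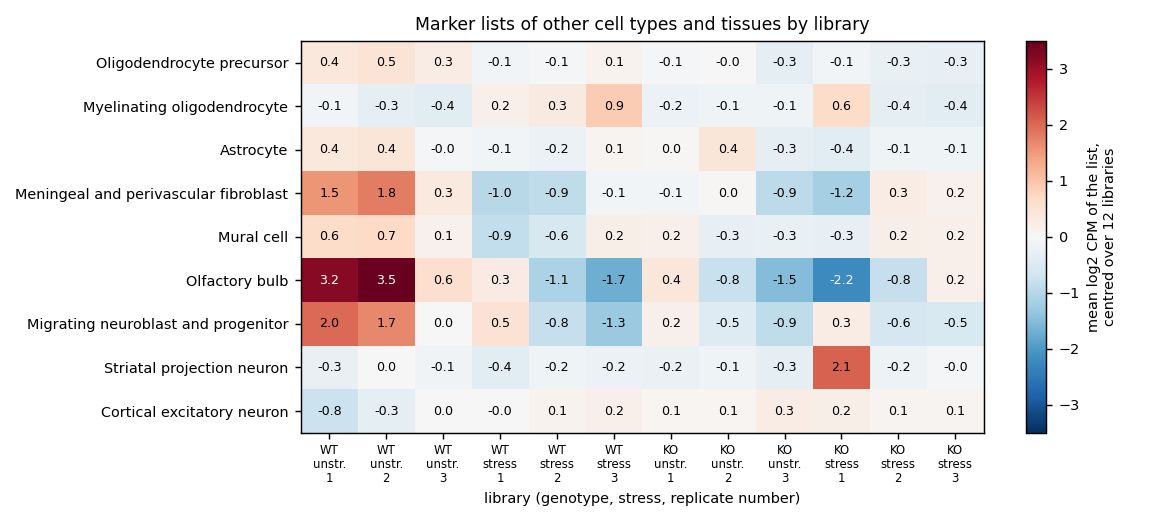
Scores of marker lists in each library, as the mean log2 CPM of the list centred over the 12 libraries. Unstressed WT libraries 1 and 2 are highest for the olfactory bulb list (3.19 and 3.47), and stressed KO library 1 is highest for the striatal list (2.06).

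To compare genes with each other, CPM was divided by the length of the union of each gene's exons in kilobases. On this scale the mean level over 12 libraries was highest for Ptprz1, at 13.5 ± 2.85 CPM per kb (SD, n = 12). Lhfpl3 followed at 11.9 ± 5.10 CPM per kb, Gpr17 at 7.55 ± 1.97, Pdgfra at 5.58 ± 0.505 and C1ql1 at 5.37 ± 1.69. A lower tier held Cspg4 at 1.47 ± 0.270 CPM per kb, Neu4 at 1.43 ± 0.237, Vcan at 1.24 ± 0.278, Bmp4 at 0.786 ± 0.540 and Enpp6 at 0.448 ± 0.129. The single gap in this order was between C1ql1, whose lowest library stood at 2.98 CPM per kb, and Cspg4, whose highest stood at 1.97. Every other pair of neighbours overlapped in its range over the libraries.

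Ptprz1, Vcan and Pdgfra encode large proteins of the precursor surface and its matrix, and they behaved differently across the groups: the first was chosen for a lower level after stress, the second for a lower level in KO, and the last is the reference marker that passed in no comparison. The stretch from 250 bases before to 50 bases after the annotated start of each is shown for that reason, from RefSeq on GRCm38.p6, 5′ to 3′ on the gene's strand. Of the 10 members, 8 were found in that promoter table by symbol; Gpr17 and C1ql1 were not. Capitals mark matches, on either strand, to 5 hexamers: the GC box GGGCGG, the SOX cores ACAAAG as well as ACAATG, and the E-boxes CAGCTG as well as CAGATG. None of these motifs overlaps another.
Ptprz1 (chr6:22875252-22875551, plus strand): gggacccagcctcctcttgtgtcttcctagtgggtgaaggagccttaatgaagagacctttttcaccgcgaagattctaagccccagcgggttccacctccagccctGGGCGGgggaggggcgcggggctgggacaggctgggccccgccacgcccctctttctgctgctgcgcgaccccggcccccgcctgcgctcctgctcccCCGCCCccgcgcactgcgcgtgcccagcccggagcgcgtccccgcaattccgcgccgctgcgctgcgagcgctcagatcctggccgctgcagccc
Vcan (chr13:89742463-89742762, minus strand): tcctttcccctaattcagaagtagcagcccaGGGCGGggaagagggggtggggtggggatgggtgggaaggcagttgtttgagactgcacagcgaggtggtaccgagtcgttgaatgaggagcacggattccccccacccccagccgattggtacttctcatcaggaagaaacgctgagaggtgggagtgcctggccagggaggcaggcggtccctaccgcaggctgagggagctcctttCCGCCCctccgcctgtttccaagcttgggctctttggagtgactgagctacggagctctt
Pdgfra (chr5:75152001-75152300, plus strand): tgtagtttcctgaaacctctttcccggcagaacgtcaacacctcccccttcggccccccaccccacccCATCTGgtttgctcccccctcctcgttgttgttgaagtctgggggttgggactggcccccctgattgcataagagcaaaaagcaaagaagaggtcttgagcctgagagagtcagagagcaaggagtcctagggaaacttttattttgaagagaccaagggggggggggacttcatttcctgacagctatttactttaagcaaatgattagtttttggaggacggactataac

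The Ptprz1 stretch held 2 GC boxes, starting at positions -143 and -45 from the start site, and 71.7% of its bases were G or C. The Vcan stretch also held 2 GC boxes, at -219 and -10, and was 61.0% G or C. Pdgfra had no GC box and 1 E-box of the CAGATG kind, at -182, with 51.0% G or C. Neither SOX core nor the CAGCTG E-box was in these 3 windows. Of 32851 promoters of the same length in the table, 35.7% held GGGCGG, 17.2% CAGATG, 18.7% ACAAAG, 12.6% ACAATG and 16.3% CAGCTG. A match is a string of letters, and no binding was measured.

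Each gene was tested with edgeR's quasi-likelihood test in 1 fit of the 4 group means over all 12 libraries, with Benjamini-Hochberg adjustment over the 15199 genes and a threshold of an adjusted p under 0.05. Gpr17 and Vcan, picked for being low in KO, are left out of the counts between genotypes, which leaves 8 members. In KO against WT averaged over stress, 1 of the 8 passed, Bmp4, which was lower in KO, and 6.33% of all genes passed in either direction. Without stress, 2 of the 8 passed in edgeR, Bmp4 and Lhfpl3, both lower in KO, against 23.2% of all genes, a share near their own. DESeq2 called C1ql1 as well (adjusted p = 0.0242), and 4187 genes in all. With stress, 0 of the 8 passed in edgeR or in DESeq2, where 0.25% of all genes did in edgeR, and 0 had an unadjusted p under 0.05. In bulk tissue, fewer cells of a type and less RNA per cell cannot be told apart.

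Ptprz1, picked for being low after stress, is left out of the counts for stress, which leaves 9 members. In WT, 2 of the 9 passed, Bmp4 and Lhfpl3, both lower after stress, against 21.9% of all genes, again a near share. In KO, 0 of the 9 passed in edgeR or in DESeq2, which gave 2 of them no adjusted p, and Pdgfra had an unadjusted p under 0.05. The background there was 0.0197%, which is 3 genes. Averaged over genotypes, 0 of the 9 passed in edgeR, where 0.0395% of all genes did. Pdgfra and Lhfpl3 had an unadjusted p under 0.05, and DESeq2 called Lhfpl3. In the interaction, which asks whether the stress response differs between genotypes, edgeR called 0 members and 0% of all genes. At an unadjusted p under 0.05, 2 members and 4330 genes stood there. DESeq2 called 2 members and 1885 genes. None of the members counted passed in the higher direction in any of the 7 comparisons. Gpr17 was the member whose 6 KO libraries all lay below the 6 WT libraries, a separation that 2.25% of all genes showed in either direction. Ptprz1 was the member whose 6 stressed libraries all lay below the 6 unstressed ones, as 0.849% of all genes did in either direction. Both genes were chosen for these directions, so nothing is read from the 2 separations. The comparisons share groups, so these counts are not independent of each other.

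**Figure D2:**
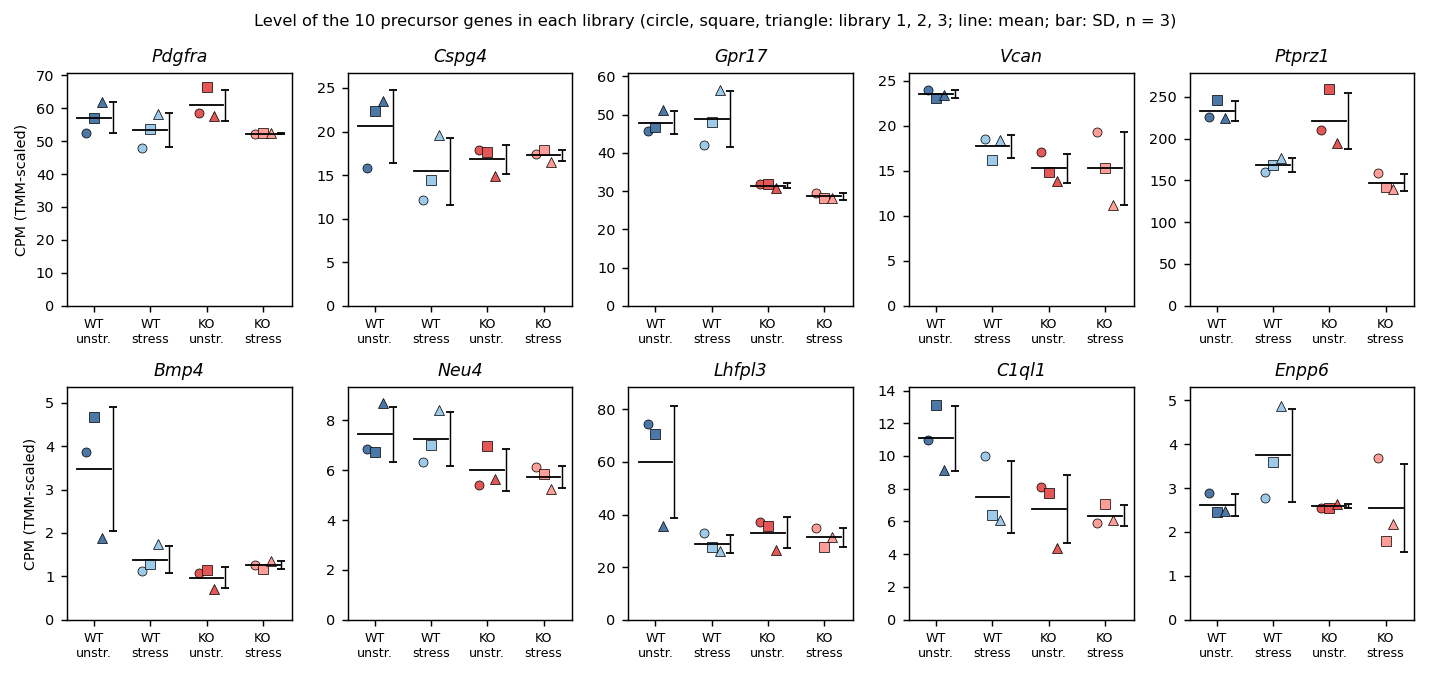
CPM of the 10 genes in each library, scaled with TMM factors, by group; symbols are libraries 1 to 3, lines are group means and bars are SD (n = 3). The 6 KO libraries of Gpr17 sit between 28.1 and 31.9 CPM, below the WT libraries at 42.1 to 56.5 CPM.

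Gpr17 encodes a G protein-coupled receptor that is high at the committed precursor stage and falls as cells mature. It stood at 45.7, 46.7 and 51.3 CPM in unstressed WT and at 42.1, 48.0 and 56.5 CPM in stressed WT. In unstressed KO it was 31.9, 31.8 and 30.7 CPM, and in stressed KO 29.6, 28.1 and 28.1 CPM. The KO libraries were all lower than the WT libraries, and they were also closer to each other. The fitted difference of KO from WT averaged over stress was -0.69 ± 0.07 on the log2 scale (SE), which is 0.62-fold. It was -0.61 ± 0.10 without stress and -0.77 ± 0.10 with stress. Leaving out any 1 library kept the average between -0.74 and -0.63.

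The stress response of Gpr17, which did not choose it, was small. Averaged over genotypes it was -0.05 ± 0.07 (adjusted p = 0.664), with a 95% interval from -0.21 to 0.10. It was 0.03 ± 0.09 in WT (adjusted p = 0.836) and -0.14 ± 0.10 in KO (adjusted p = 0.689). These single contrasts share libraries with the genotype contrasts that chose Gpr17, so their p-values are a description without a test. The interaction was -0.17 ± 0.13 (adjusted p = 0.425). Gpr17 lies on GRCm38 chromosome 18 at 31942997 to 31949636 on the minus strand, and 188 of its exon bases are shared with exons of Lims2 on the plus strand. Whether reads were counted by strand is not given in the sources used here. Lims2 itself lay between 5.98 and 10.1 CPM in all libraries and differed by -0.25 ± 0.11 in KO averaged over stress (adjusted p = 0.177).

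Pdgfra, the receptor that defines the precursor, did not pass in any comparison. It read 52.5, 57.1 and 61.9 CPM in unstressed WT and 48.0, 53.8 and 58.4 CPM in stressed WT. In unstressed KO it read 58.7, 66.4 and 57.6 CPM, and in stressed KO 52.1, 52.4 and 52.5 CPM. WT and KO overlapped at either stress level, and in KO the 3 stressed libraries lay below the 3 unstressed ones. Of all genes, 16.9% separated in this way in KO, in either direction. The KO to WT difference averaged over stress was 0.03 ± 0.06 (adjusted p = 0.778, 95% interval -0.11 to 0.17). After stress the average difference was -0.16 ± 0.06 (adjusted p = 0.157).

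Cspg4 also marks mural cells of vessels. It ran from 15.8 to 23.5 CPM in unstressed WT, 12.1 to 19.6 in stressed WT, 14.9 to 17.9 in unstressed KO and 16.5 to 17.8 in stressed KO. These ranges overlapped, and the difference in KO averaged over stress was -0.07 ± 0.13 (adjusted p = 0.764). After stress it was -0.19 ± 0.13 (adjusted p = 0.375). The 9 listed mural genes summed to between 96.9 and 247 CPM, with their highest sums in unstressed WT libraries 1 and 2. Their part in the Cspg4 values was not tested. Of 5 other genes of the PDGF family, none passed in either average or the interaction by edgeR. Those with the smallest p were the ligands Pdgfc, at -0.27 ± 0.08 after stress (adjusted p = 0.107), and Pdgfd, at -0.87 ± 0.28 (adjusted p = 0.113).

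Levels were also set against Pdgfra within each library. Fibroblasts, mural cells and astrocytes express some of these genes too, so the ratio is not a measure of precursor signal alone. The ratio of Gpr17 to Pdgfra in CPM was 0.818 to 0.870 in unstressed WT and 0.878 to 0.968 in stressed WT. In unstressed KO it was 0.479 to 0.543, and in stressed KO 0.536 to 0.569. The WT and KO ratios did not overlap. Neu4 to Pdgfra ran from 0.118 to 0.144 over the 6 WT libraries and from 0.0923 to 0.118 over the 6 KO libraries. The lowest WT value was 0.1182 and the highest KO value 0.1176, and in CPM Neu4 overlapped between the genotypes. How many other genes separate in their ratio to Pdgfra was not computed. Ptprz1 to Pdgfra was 3.63 to 4.32 and 3.03 to 3.33 in unstressed and stressed WT, and 3.38 to 3.90 and 2.66 to 3.05 in unstressed and stressed KO. The ratio of Ptprz1 was thus lower in every stressed library than in every unstressed one. These ratios reuse the values that chose Gpr17 and Ptprz1, and are given as a description.

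**Figure D3:**
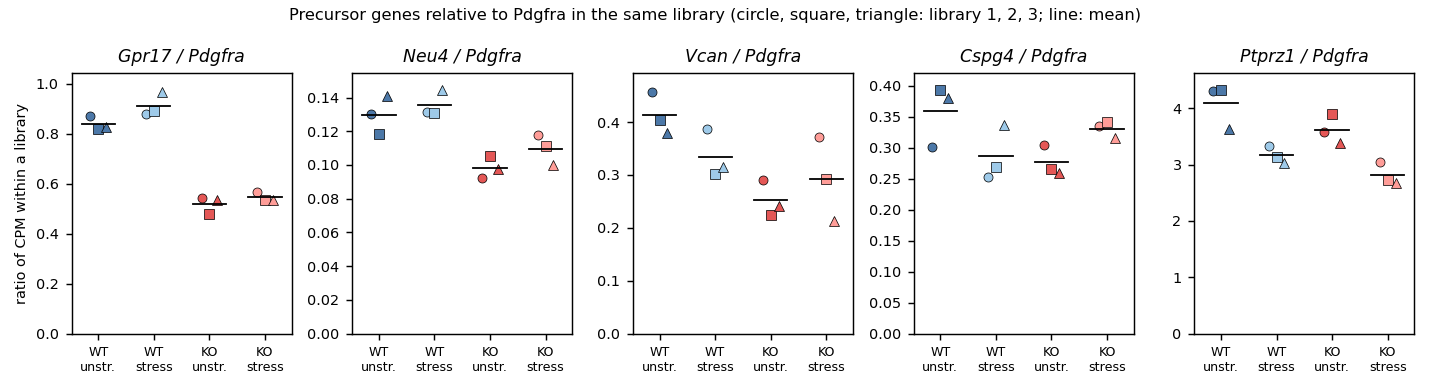
Ratio of 5 precursor genes to Pdgfra within each library, by group; symbols are libraries 1 to 3 and lines are group means (n = 3). Gpr17 to Pdgfra is at most 0.569 in KO and at least 0.818 in WT, and Vcan and Cspg4 overlap between genotypes.

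Vcan encodes versican, a chondroitin sulfate proteoglycan of the lectican family that precursors and fibroblasts secrete. Its level was 24.0, 23.1 and 23.5 CPM in unstressed WT and 18.5, 16.2 and 18.4 CPM in stressed WT. In unstressed KO it was 17.1, 14.8 and 13.9 CPM, and in stressed KO 19.3, 15.3 and 11.2 CPM. Unstressed WT stood above all other libraries, and among the rest WT and KO overlapped. Of all genes, 36.6% separated by stress in WT and 36.5% between the unstressed genotypes, in either direction. KO differed from WT by -0.62 ± 0.15 without stress and by -0.20 ± 0.16 with stress, with an average of -0.41 ± 0.11. The average was -0.51 without stressed KO library 1 and -0.32 without stressed KO library 3, the highest and the lowest of that group.

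The difference of Vcan after stress was -0.41 ± 0.15 in WT (adjusted p = 0.0729) and 0.01 ± 0.16 in KO (adjusted p = 0.991). The WT value was called without stressed KO library 1 or 3, at -0.40 in both, and by DESeq2, at -0.41 (adjusted p = 0.0498). The unstressed WT libraries in these contrasts are also those of the genotype contrasts that chose Vcan. The p-values and calls here are therefore a description without a test. The interaction of 0.42 ± 0.22 had an adjusted p of 0.224, so a difference between these responses was not shown. Fibroblasts also express Vcan, Pdgfra and Bmp4, and the sum of the 12 fibroblast genes was lower in stressed WT, at 62.9 to 113 CPM, than in unstressed WT, at 152 to 414 CPM. In edgeR, 11 of these 12 genes passed in that comparison, all lower, beside 21.9% of all genes. The part of fibroblasts in the Vcan values was not tested.

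Other genes of the same matrix gave a mixed picture. Of 11 lecticans, link proteins and partners, 2 passed in the genotype average and both were lower in KO, beside 6.33% of all genes in either direction. In the stress average 0 of the 11 passed, beside 0.0395% of all genes. Acan, which encodes aggrecan of perineuronal nets, was 11.4 ± 5.28 CPM in unstressed WT, 3.89 ± 1.02 in stressed WT, 4.27 ± 0.956 in unstressed KO and 2.79 ± 0.308 in stressed KO (SD, n = 3). Its genotype average was -0.94 ± 0.24 (adjusted p = 0.0447), and the value was -0.41 (adjusted p = 0.289) without unstressed WT libraries 1 and 2. The call was lost when any 1 library other than unstressed WT library 3 was left out, with values from -1.03 to -0.80. Hapln4, a link protein of the perineuronal net, averaged -0.46 ± 0.11 in KO (adjusted p = 0.0392). Its mean was 87.2 ± 12.6 CPM in unstressed WT and 129 ± 10.1 in stressed WT, against 76.7 ± 12.5 in unstressed KO and 78.04 ± 15.5 with stress (SD, n = 3). That call held without unstressed WT library 1 or 3, unstressed KO library 3 or stressed KO library 2, and was lost with any other library left out, at -0.48 to -0.38. The median of the 11 genes was -0.24 in the genotype average, beside 0.0014 for all genes. Among 6 proteases that cleave versican, none passed in either average or the interaction. In single contrasts 4 of the 6 were lower in stressed than unstressed WT, with a median of -0.80, and 1 was lower in unstressed KO, beside 21.9% and 23.2% of all genes. The smallest p belonged to Adamts1, at -0.59 ± 0.10 after stress (adjusted p = 0.0576), and to Adamts5, at -1.06 ± 0.30 in KO (adjusted p = 0.0549).

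Ptprz1 encodes a receptor tyrosine phosphatase whose long forms carry chondroitin sulfate, and astrocytes and their progenitors express it as well as precursors. It was the most abundant member in CPM. Unstressed WT read 226, 246 and 225 CPM, and stressed WT 160, 168 and 177 CPM. Unstressed KO read 210, 259 and 195 CPM, and stressed KO 159, 143 and 140 CPM. All 6 stressed libraries were lower than all 6 unstressed ones. The described stress difference was -0.47 ± 0.10 in WT and -0.59 ± 0.10 in KO, with an average of -0.53 ± 0.07, or 0.69-fold. Over the alternatives, the average lay between -0.57 and -0.46.

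Between genotypes, which did not choose it, Ptprz1 differed by -0.13 ± 0.07 averaged over stress (adjusted p = 0.244, 95% interval -0.30 to 0.03). The difference was -0.07 ± 0.10 without stress (adjusted p = 0.626) and -0.19 ± 0.10 with stress (adjusted p = 0.448). These single contrasts share libraries with the stress contrasts that chose Ptprz1, so their p-values are a description without a test. The interaction was -0.12 ± 0.14 (adjusted p = 0.582). Astrocyte genes, 12 in all, summed to 4028 to 4406 CPM in unstressed WT and 3809 to 4460 in stressed WT. In KO the sums were 3822 to 6054 CPM unstressed and 3440 to 3845 CPM stressed. The highest astrocyte sum was in unstressed KO library 2, which also had the highest Ptprz1 level, and the part of astrocytes in the Ptprz1 values was not tested. Without that library the stress average of Ptprz1 was -0.46.

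When the genes found by name in the annotation were cut by their longest transcript into 5 bins of 2915 to 2922 genes, the median stress average went from 0.07 in the shortest bin to -0.10 in the longest. Ptprz1, Vcan, Pdgfra and Cspg4 lie in the longest bin. The stress average of Ptprz1 was below the median of that bin, and the part of length in it was not tested. None of 13 genes for ligands and relatives of Ptprz1 passed in either average or the interaction by edgeR. Sdc3, a heparan sulfate proteoglycan that shares the ligand pleiotrophin, had an interaction of 0.30 ± 0.09 (adjusted p = 0.0761). Cntn5, a contactin, averaged -0.32 ± 0.11 after stress (adjusted p = 0.126). Of 20 genes for chondroitin sulfate synthesis, 19 were tested and none passed in these 3 comparisons. The lowest p were those of the linkage enzymes B3galt6, at 0.21 ± 0.06 after stress (adjusted p = 0.0936), and Xylt2, with an interaction of 0.39 ± 0.12 (adjusted p = 0.0812).

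Bmp4 encodes a bone morphogenetic protein, a family of secreted signals that hold precursors back from maturing, and fibroblasts make it too. It was low throughout. Unstressed WT read 3.85, 4.66 and 1.89 CPM, and stressed WT 1.13, 1.28 and 1.74 CPM. Unstressed KO read 1.07, 1.14 and 0.70 CPM, and stressed KO 1.25, 1.16 and 1.34 CPM. Unstressed WT libraries 1 and 2 were highest, library 3 of that group was the next, and the other 9 libraries lay between 0.70 and 1.74 CPM. Bmp4 was lower in KO averaged over stress, by -0.99 ± 0.24 (adjusted p = 0.0360), and without stress, by -1.83 ± 0.33 (adjusted p = 0.00923). With stress it differed by -0.16 ± 0.34 (adjusted p = 0.894). In WT it was lower after stress by -1.32 ± 0.31 (adjusted p = 0.0184), and in KO the difference was 0.36 ± 0.35 (adjusted p = 0.796). The interaction was 1.67 ± 0.47 (adjusted p = 0.0679 in edgeR, 0.0245 in DESeq2).

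The calls of Bmp4 depended on which libraries were in the fit. Without libraries 1 and 2 the genotype average was -0.55 (adjusted p = 0.235), the stress difference in WT -0.44 (adjusted p = 0.598) and the interaction 0.80 (adjusted p = 0.451). The genotype average also missed the threshold when any 1 library other than unstressed WT library 3 was left out, with values from -1.06 to -0.86 and adjusted p from 0.0548 to 0.0916. For stress in WT, the threshold was missed without unstressed WT library 1 (-1.24) or 2 (-1.05) and without stressed WT library 1 (-1.19) or 2 (-1.26). Without unstressed WT library 3, edgeR called the interaction, at 1.98 (adjusted p = 0.00332), and the stress average, at -0.63 (adjusted p = 0.0253). Without stress, the call for KO against WT held when any 1 library was left out. It was lost without unstressed WT libraries 1 and 2 together, at -0.95 (adjusted p = 0.246), with a covariate for olfactory bulb genes, at -1.17 (adjusted p = 0.259), and with only the groups compared, at -1.83 (adjusted p = 0.0573). The olfactory bulb, neuroblast and fibroblast sums were highest in the same 2 libraries as Bmp4, and their part in its level was not tested.

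Of 28 further genes of the BMP pathway, Hjv was not in the table and 27 were tested. In the genotype average 1 passed, beside 6.33% of all genes in either direction. It was Nog, which encodes the BMP antagonist noggin and was lower in KO by -0.34 ± 0.08 (adjusted p = 0.0353). It stood at 13.5 ± 0.614 CPM in unstressed WT, 10.8 ± 1.23 in stressed WT, 9.46 ± 0.773 in unstressed KO and 9.62 ± 0.931 in stressed KO (SD, n = 3). Without unstressed WT libraries 1 and 2 its adjusted p was 0.173. With 1 library left out the call held for unstressed WT library 3 and stressed WT library 3, and was otherwise lost at -0.38 to -0.29. In single contrasts, 9 of the 27 were lower in unstressed KO and 11 were lower in stressed WT, and 0 were higher. Of all genes, 23.2% and 21.9% passed in these contrasts in either direction. The stress average and the interaction called 0 of the 27 in edgeR. The median over the 27 was -0.14 in the genotype average and -0.33 for stress in WT, beside 0.0014 and 0.0023 for all genes.

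Lhfpl3, which encodes a membrane protein of the LHFPL family, was highest in the same libraries as Bmp4. Unstressed WT read 74.3, 70.5 and 35.6 CPM, and stressed WT 32.8, 27.6 and 26.0 CPM. Unstressed KO read 37.1, 35.8 and 26.4 CPM, and stressed KO 34.8, 27.7 and 31.5 CPM. Libraries 1 and 2 of unstressed WT stood far above the other 10, and library 3 lay within the KO range. Lhfpl3 was lower in stressed than unstressed WT by -1.06 ± 0.23 (adjusted p = 0.0154) and lower in unstressed KO than unstressed WT by -0.86 ± 0.23 (adjusted p = 0.0243). Without unstressed WT libraries 1 and 2 these values were -0.31 (adjusted p = 0.510) and -0.11 (adjusted p = 0.832). The genotype average was -0.37 ± 0.16 with all libraries (adjusted p = 0.174) and 0.01 without those 2.

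For stress in WT the threshold was missed without unstressed WT library 2 (-0.94) and without stressed WT library 2 (-1.03). For genotype without stress it was missed without unstressed WT library 1 (-0.68) or 2 (-0.75), and without unstressed KO library 2 (-0.91) or 3 (-0.72). The interaction of Lhfpl3 was 0.98 ± 0.33 (adjusted p = 0.0906), and 0.23 without unstressed WT libraries 1 and 2. Without unstressed WT library 3 edgeR called the interaction at 1.27 (adjusted p = 0.00210), the genotype average at -0.50 (adjusted p = 0.00414) and the stress average at -0.70 (adjusted p = 0.00113). Of 5 other LHFPL genes, Lhfpl6 was not found under that symbol and 3 were tested. None passed in either average or the interaction. Lhfpl2 had an interaction of 0.69 ± 0.21 (adjusted p = 0.0783), and Lhfpl5 differed by 0.38 ± 0.13 in KO (adjusted p = 0.0963). Lhfpl3 shares 567 exon bases with the antisense gene A930003O13Rik, which lay at or below 0.767 CPM.

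C1ql1 encodes a secreted C1q-like protein. It read 10.98, 13.1 and 9.14 CPM in unstressed WT and 10.01, 6.38 and 6.07 CPM in stressed WT. In unstressed KO it read 8.12, 7.76 and 4.38 CPM, and in stressed KO 5.88, 7.09 and 6.08 CPM. Its 3 unstressed WT libraries stood above all KO libraries, and stressed WT overlapped with KO. Between the unstressed genotypes, 36.5% of all genes separated, in either direction. The difference in KO was -0.71 ± 0.24 without stress (adjusted p = 0.0537 in edgeR, 0.0242 in DESeq2). Averaged over stress it was -0.47 ± 0.17 (adjusted p = 0.109). Without unstressed WT library 3 the average was called, at -0.54 (adjusted p = 0.0420). After stress the average was -0.33 ± 0.17 (adjusted p = 0.265). Of 3 related genes, the other C1q-like genes and their receptor, none passed in either average or the interaction. C1ql3 differed by 0.54 ± 0.17 in KO (adjusted p = 0.0819) and C1ql2, at most 0.556 CPM in its group means, had an interaction of 1.69 ± 0.72 (adjusted p = 0.154).

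Neu4 encodes a sialidase, an enzyme that trims sialic acid from glycoproteins and glycolipids. It read 6.85, 6.75 and 8.71 CPM in unstressed WT and 6.31, 7.02 and 8.43 CPM in stressed WT. In unstressed KO it read 5.41, 6.98 and 5.63 CPM, and in stressed KO 6.13, 5.83 and 5.25 CPM. The stressed KO libraries were below the stressed WT libraries, and the unstressed groups overlapped. A gap between the genotypes with stress was seen in 22.1% of all genes. The genotype average was -0.32 ± 0.11 (adjusted p = 0.0931), from -0.31 without stress and -0.34 with it. After stress the average was -0.05 ± 0.11 (adjusted p = 0.828). Of the 4 sialidase genes, Neu4 among them, none passed in either average or the interaction. Neu2 differed by 0.26 ± 0.09 after stress (adjusted p = 0.133), and Neu1, the lysosomal sialidase, by -0.12 ± 0.06 in KO (adjusted p = 0.239).

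Enpp6 encodes a choline-specific phosphodiesterase of newly formed oligodendrocytes. Unstressed WT read 2.89, 2.45 and 2.48 CPM, and stressed WT 2.77, 3.596 and 4.88 CPM. Unstressed KO read 2.55, 2.56 and 2.64 CPM, and stressed KO 3.69, 1.78 and 2.18 CPM. The highest levels were in stressed WT library 3 and stressed KO library 1, the libraries with the highest sums of myelin genes, and the part of myelin content in them was not tested. The genotype average was -0.27 ± 0.19 (adjusted p = 0.363) and the stress average 0.27 ± 0.19 (adjusted p = 0.403). Of 7 genes for choline supply and related phosphodiesterases, 1 passed in the genotype average, beside 6.33% of all genes in either direction. Enpp2, which encodes autotaxin and is also a myelin gene, fell by 0.33 on the log2 scale in KO averaged over stress (SE 0.05, adjusted p = 0.00747). It stood at 199 ± 2.15 and 189 ± 6.96 CPM in unstressed and stressed WT and at 153 ± 10.8 and 155 ± 9.55 CPM in unstressed and stressed KO (SD, n = 3). The Enpp2 call held when any 1 library was left out. Without unstressed WT libraries 1 and 2 its adjusted p was 0.0596, with a difference of -0.33.

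**Figure D4:**
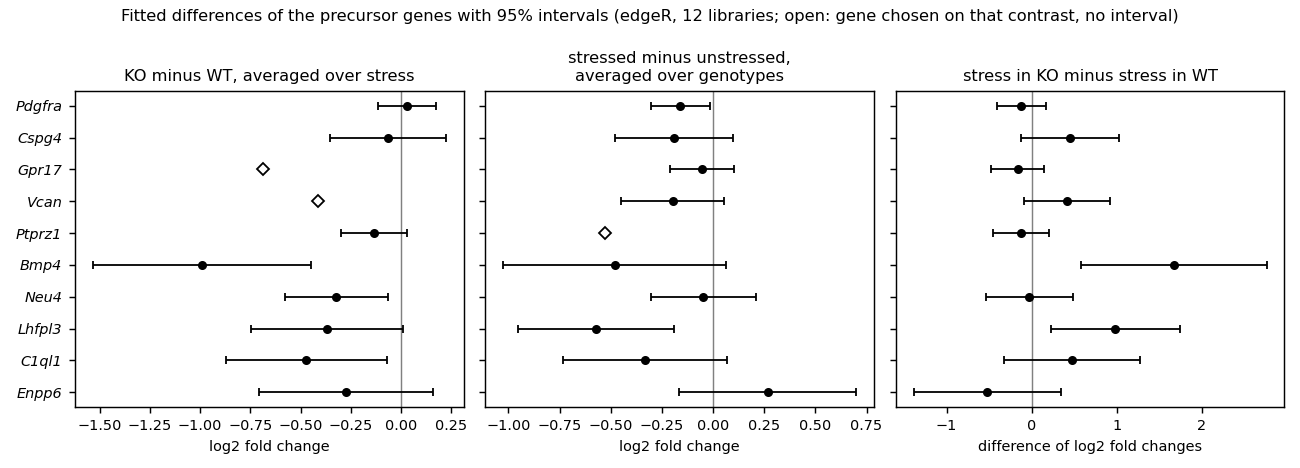
Fitted log2 differences of the 10 genes with 95% intervals, for KO minus WT, stressed minus unstressed, and the interaction (12 libraries). Open diamonds are genes chosen on that contrast, drawn without an interval. The interval of Pdgfra runs from -0.11 to 0.17 in the KO to WT panel, and that of Bmp4 from 0.58 to 2.76 in the interaction panel. In edgeR's interaction test the adjusted p of Bmp4 was 0.0679.

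Other genes of the lineage were described from lists. Of 19 further precursor markers, all tested, 1 passed in the genotype average, beside 6.33% of all genes in either direction. In the stress average and the interaction 0 passed by edgeR. The gene that passed was Mmp15, a membrane metalloprotease, lower in KO by -0.33 ± 0.09 (adjusted p = 0.0447). The median of the 19 was -0.08 in the genotype average and -0.0088 in the stress average, beside 0.0014 and -0.0024 for all genes. Of 15 markers of committed and newly formed oligodendrocytes, 14 were tested and 1 passed, again in the genotype average and beside the same 6.33%. Tmem163, a zinc transporter gene also expressed by neurons, was lower in KO by -0.83 ± 0.19 (adjusted p = 0.0301), at 37.6 ± 15.7 CPM in unstressed WT against group means of 14.2 to 18.3 CPM elsewhere. The median of the 14 was -0.25, beside 0.0014 for all genes. Without unstressed WT libraries 1 and 2 the difference of Tmem163 was -0.36 (adjusted p = 0.149) and that of Mmp15 -0.30 (adjusted p = 0.175). With 1 library left out, the call of Mmp15 held for unstressed WT library 3 and stressed WT library 2, and was otherwise lost at -0.37 to -0.28. With the replicate number as a block Mmp15 was not called, at -0.33 (adjusted p = 0.0613). The call of Tmem163 held for unstressed WT library 3, unstressed KO library 1 and stressed KO library 1, and was otherwise lost at -0.85 to -0.72.

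Transcription factors of the lineage, 20 in number, gave 0 calls in either average or the interaction in edgeR. In stressed WT 7 were lower and 1 higher, and in unstressed KO 2 were lower, beside 21.9% and 23.2% of all genes. Zeb2, which represses inhibitors of myelination, had the smallest p, at -0.34 ± 0.07 after stress (adjusted p = 0.0613). Nkx6-2, a factor of maturing oligodendrocytes, stood at 0.85 ± 0.21 after stress (adjusted p = 0.0723). Of 8 genes of cell division, 6 had enough counts, and none passed in those 3 comparisons. Top2a and Birc5 had the smallest p among them. Top2a stood at 0.66 to 2.32 CPM in the group means, with an SD of 3.30 in stressed KO (n = 3) and an interaction of 2.14 ± 1.19 (adjusted p = 0.248). Birc5 differed by 0.52 ± 0.29 in KO (adjusted p = 0.253).

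The members did not vary together as 1 block. Among the 12 deviations from group means, Pearson's r of log2 CPM was 0.853 for Pdgfra with Cspg4, 0.872 for Pdgfra with Neu4, 0.807 for Pdgfra with Gpr17 and 0.847 for Cspg4 with Gpr17. A further set was Bmp4 with Lhfpl3, at 0.769, and Lhfpl3 with C1ql1, at 0.635. Between the sets r was lower, at -0.484 for Pdgfra with Lhfpl3 and -0.524 for Neu4 with Lhfpl3. Vcan with Pdgfra was at -0.0813. These values describe 12 points that share library, depth and dissection, and carry no test.

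The genes most like each of the 3 selected members were found by Pearson's r of log2 CPM over the 12 libraries among 12912 genes whose mean log2 CPM reached 1 or more. For Gpr17 they were Gm3893 at 0.964, Tmem254b at 0.956, Tmem254a at 0.934, Arhgef2 at 0.915 and 4933409K07Rik at 0.914. Tmem254a and Tmem254b are near-identical copies, so their own levels are uncertain. For Vcan they were Nup188 at 0.964, Eif4ebp2 at 0.963, Myo9b at 0.931, Mcmbp at 0.927 and Pcdhgb6 at 0.922. For Ptprz1 they were Zbtb41 at 0.945, Stox2 at 0.934, Vwa5a at 0.922, Hipk1 at 0.921 and Dock1 at 0.919. None of the other 9 members was among the 5 nearest to any of the 3.

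After group means were subtracted the nearest genes were 2510002D24Rik (0.931) and Pkp4 (0.898) for Gpr17, Wipf3 (0.935) and Mcmbp (0.928) for Vcan, and Zbtb41 (0.962) and Pygb (0.957) for Ptprz1. Zbtb41 for Ptprz1 and Mcmbp for Vcan were thus near in both measures. The next 3 on each of these lists were Ppp4r1l-ps, Myom1 and Sgms1 for Gpr17, Cdon, Adamts3 and 2610005L07Rik for Vcan, and Prkd1, Rpl31-ps12 and Rnd2 for Ptprz1, with r from 0.888 to 0.951. Likeness over 12 libraries was found by search among many genes, and it is a description.

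**Figure D5:**
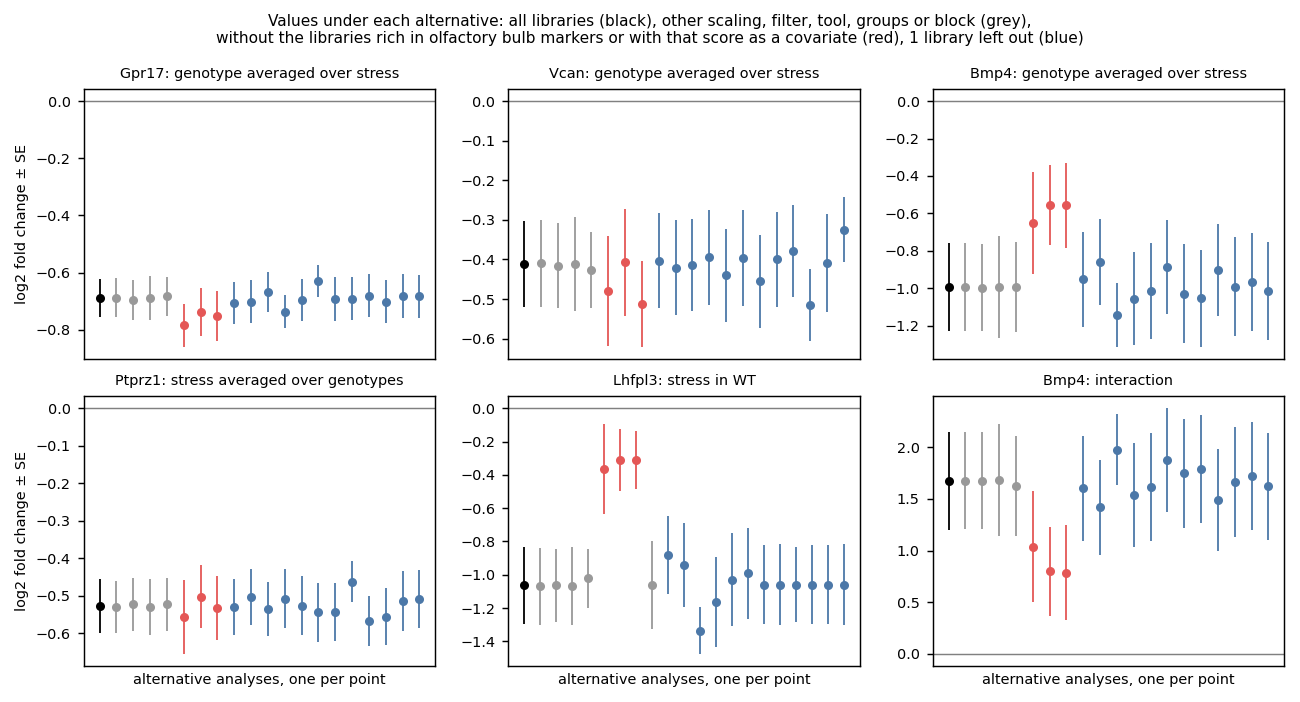
Log2 fold change with SE for 6 member values under each alternative analysis, 1 point each; colours separate all libraries, other scaling, filter, tool, groups or block, removal of or adjustment for libraries rich in olfactory bulb markers, and 1 library left out. Gpr17 stays between -0.79 and -0.63, while Lhfpl3 for stress in WT moves from -1.06 to -0.31 without unstressed WT libraries 1 and 2.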

How the data were processed

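Total RNA libraries were made with a directional kit, per the labels' protocols. The table the authors deposited holds estimated counts for every gene symbol, unnormalised, with a column for each of the 12 libraries. The submitters' processing notes name RSEM 1.3.1, STAR 2.7.9a, DESeq2 1.36.0 and Trim Galore 0.6.6, and the mm10 build. The sources used here give neither the annotation nor the use of strand. The estimated counts were rounded; no member's count had decimals.

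Genes were filtered with filterByExpr of edgeR (minimum count 10, minimum total 15), which left 15199, and scaled with TMM factors. CPM uses those factors, and log2 CPM a prior count of 2. The quasi-likelihood fit of edgeR 4.0.16 in R 4.3.3 has 8 residual degrees of freedom. Tests were two-sided, and SE is the log2 fold change divided by the square root of F. The 95% intervals use a t quantile with 8 degrees of freedom and are not adjusted over genes, so they can differ from the test. For Lhfpl3 in the genotype average, the interval from -0.75 to 0.01 includes 0 at an unadjusted p of 0.0455 in edgeR. No permutation test was run. In a single contrast of 3 libraries against 3 it allows no p below 0.1, a limit that does not hold for the averages. A count of 3, the most that a count of 0 allows, equals 0.0920 to 0.192 CPM by library, which covers counting error only. Libraries of a group differed by 4.87 to 68.6 chi-square per degree of freedom, so none was taken as a duplicate. GENCODE mouse release 21 (GRCm38) gave exon lengths and positions, and promoter sequences from RefSeq.

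The members, gene lists and tests were chosen with earlier results of these data known. The genes named are the members; of each list, those past the threshold in an average or the interaction, or else the pair with the smallest p; and the 5 genes most like Gpr17, Vcan and Ptprz1. Alternatives were DESeq2 size factors, no filter, DESeq2 1.42.0, only the groups compared, the replicate number as a block, each library left out, the libraries rich in olfactory bulb genes left out, and their score as a covariate. The fit was also tested on simulated data.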

Additional observations from a re-analysis of the deposited data

Results flagged for a closer look

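Bmp4 was the result that stood out by its direction. Its 3 stressed WT libraries, at 1.13 to 1.74 CPM, were all lower than the 3 unstressed WT libraries, at 1.89 to 4.66 CPM. Its 3 stressed KO libraries, at 1.16 to 1.34 CPM, were all higher than the 3 unstressed KO libraries, at 0.70 to 1.14 CPM. In counts, stressed KO library 2 held 24 and unstressed KO library 2 held 25, at 1.157 and 1.141 CPM. The KO libraries held 14 to 36 counts each. The fitted stress difference in KO was 0.36 ± 0.35 (adjusted p = 0.796 in edgeR). Of all genes, 36.6% separated by stress in WT and 16.9% in KO, in either direction. The stress difference in KO minus that in WT was 1.67 ± 0.47 on the log2 scale (adjusted p = 0.0679 in edgeR's interaction test, 0.0245 in DESeq2). Over the other analyses it ran from 0.79 to 1.98. The lower end came from leaving out unstressed WT libraries 1 and 2 with stressed KO library 1, and the upper end, at an adjusted p of 0.00332, from leaving out unstressed WT library 3. The part of tissue content in this difference was not tested.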

How the results depend on the processing

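Of 970 recomputed member values, 838 kept their sign and their side of the threshold, 80 no longer passed, 13 newly passed and 39 changed sign; in none of these 39 was the value past the threshold before or after. Single contrasts were recomputed only for Gpr17, Vcan, Ptprz1, Bmp4 and Lhfpl3, and the averages and the interaction for all 10 members. The 838 include the many values that did not pass to begin with, so they do not measure how stable the calls were. Counts over all 10 members, the 3 selected genes included as a description, moved as follows. For stress in WT, 3 became 0 with a covariate for the olfactory bulb score, without unstressed WT libraries 1 and 2, without these and stressed KO library 1, and with only the groups compared. For stress in KO, 0 became 1 with DESeq2. The stress average went from 1 to 2 with DESeq2, and to 0 with the covariate and both removals of libraries. Genotype without stress went from 4 to 1 with the covariate, and to 0 with both removals and with only the groups compared. The genotype average went from 3 to 1 with the covariate and both removals. The interaction went from 0 to 2 with DESeq2, which gave 4 for stress in WT and 5 for genotype without stress. Leaving out 1 library gave 0 to 4 members for stress in WT, 0 to 3 for the stress average, 2 to 5 for genotype without stress, 1 to 5 for the genotype average and 0 to 2 for the interaction. As a description without a test, Vcan was no longer called in 10 of these 12 fits for the genotype average and in 3 for genotype without stress. Ptprz1 was no longer called in 8 for the stress average and in 2 for stress in WT. Both genes were chosen on these directions. Over all genes, leaving out 1 library moved the calls from 3322 to between 0 and 5635 for stress in WT, from 3529 to between 234 and 5729 for genotype without stress, from 962 to between 164 and 3308 for the genotype average, from 6 to between 2 and 3003 for the stress average and from 0 to at most 3851 for the interaction. Each of these upper ends came from leaving out unstressed WT library 3. DESeq2 gave 4030 for stress in WT, 1920 for the genotype average, 46 in place of 3 for stress in KO, 1200 in place of 6 for the stress average, 299 in place of 38 for genotype with stress and 1885 in place of 0 for the interaction. The cause of these moves was not tested.

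Signs changed in small values. With the covariate, Gpr17 for stress in WT was -0.18, Vcan and Lhfpl3 for stress in KO -0.012 and 0.025, C1ql1 and Enpp6 in the stress average 0.045 and -0.037, and Pdgfra in the genotype average -0.046. In the interaction it gave 0.024 for Pdgfra, 0.016 for Gpr17, 0.32 for Neu4 and -0.071 for C1ql1. Without unstressed WT libraries 1 and 2, Gpr17 for stress in WT was -0.0691, Pdgfra in the genotype average -0.027, Lhfpl3 there 0.010 and Neu4 in the interaction 0.21. With stressed KO library 1 also removed, these were -0.0693 for Gpr17, -0.026 for Pdgfra, 0.15 for Neu4 and -0.20 for Vcan in stress in KO. With 1 library left out, the ranges were -0.0858 to 0.13 for Gpr17 for stress in WT, -0.20 to 0.18 for Vcan for stress in KO, -0.22 to 0.0102 for Lhfpl3 for stress in KO, -0.11 to 0.0221 for Neu4 in the stress average, -0.20 to 0.0134 for Ptprz1 for genotype without stress, -0.29 to 0.0505 for Bmp4 for genotype with stress, -0.00477 to 0.0659 for Pdgfra in the genotype average, -0.14 to 0.0427 for Cspg4 in the genotype average, -0.21 to 0.00116 for Ptprz1 in the interaction and -0.14 to 0.093 for Neu4 in the interaction.

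The replicate numbers were not taken to pair the libraries. Of 18 same-numbered pairs, 4 had a correlation of deviations over 0.1, and r ran from -0.379 to 0.449. These 4 were the pairs of number 1 among unstressed WT, stressed WT and unstressed KO (0.374, 0.354 and 0.313) and number 3 of unstressed WT with unstressed KO. With the replicate block, Vcan for stress in KO was -0.00152, and the stress average called 25 genes in place of 6. The 1 member called there was Ptprz1, which was chosen for that direction, so its call is a description without a test. Bmp4 and Enpp6 had the fewest counts of the members; the effect of depth was not tested.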
